A study of Mus musculus with 2 samples.

Results

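The nuclear genes for the subunits of the mitochondrial respiratory chain and ATP synthase were compared between 2 sorted populations of mouse retinal microglia, the resident macrophages of the retina. Members were taken from the deposited gene table by symbol: protein-coding genes named Nduf followed by a, b, c, s or v and a digit, the 4 Sdh genes, Uqcr genes and *Cyc1*, Cox4 to Cox8 genes, and Atp5 genes, without the Ndufaf assembly factors. This gave 77 of 13549 listed genes: 36 of complex I, 4 of complex II, 9 of complex III, 11 of complex IV and 17 of complex V. The symbol rule uses no measured value, though it was set with earlier results of these data known, and all 77 had at least 20 reads over both libraries (85 to 13559, median 685).

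All cells came from animals of the genotype CD11c-Cre-gfp;Rosa-TDTom at postnatal day 5, in which the promoter of CD11c (gene *Itgax*) drives Cre and GFP, and Cre switches on TdTomato for good. Cd11c-active cells (4041) carried both colours when sorted, and Cd11c-lineage cells (5441) carried TdTomato without GFP. Both were obtained from the same 8 pooled retinas, 4 female and 4 male, and share both alleles, so no group without Cre or reporter was compared. *Itgax* itself had 2409 reads in the first and 1698 in the second library, and thus was read in both. Each population gave 1 library, so no difference below has a replicate check and no p-value is given. With bulk RNA, fewer expressing cells and less RNA per cell cannot be told apart.

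The respiratory chain sits in the inner mitochondrial membrane and passes electrons from NADH (complex I) or succinate (complex II) through complex III to oxygen at complex IV, and the proton gradient this builds drives ATP synthase (complex V). Complexes I, III, IV and V combine subunits encoded in the nucleus with a few encoded by mitochondrial DNA, while complex II is encoded in the nucleus alone. In macrophages, respiration and glycolysis shift with activation state, and the nuclear subunit genes are known as targets of the factors NRF1, GABPA (an ETS factor) and YY1.

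The Cd11c-active library held 12943998 reads and the Cd11c-lineage library 13402625. The members took 52306 reads (0.404%) of the first and 50079 (0.374%) of the second. Levels are CPM, reads scaled to a common library size with TMM factors, and ratios are log2 of Cd11c-active over Cd11c-lineage. Scaling to library totals lowers every ratio by 0.14, and the median over all genes from 0.01 to -0.13. The 18S ribosomal RNA *Rn18s* took 8.57% of reads in the first library and 2.84% in the second. Microglial markers were abundant in both: the 10 genes chosen for this check, led by *Csf1r*, summed to 22770 and 21212 CPM, and 0 of them were past 2-fold. Of 8 endothelial markers, all were higher in Cd11c-active, with a sum of 646 against 73.7 CPM, and *Esam*, *Tek*, *Flt1*, *Plvap* and *Cldn5* had 0 reads in Cd11c-lineage. All 5 border macrophage markers were past 2-fold lower in Cd11c-active (21.2 against 131 CPM), with *Cd163*, *Ms4a7*, *Lyve1* and *F13a1* at 0 reads there. Of 5 pericyte markers with at least 20 reads, 4 were higher in Cd11c-active and absent from the Cd11c-lineage reads (*Pdgfrb*, *Rgs5*, *Abcc9* and *Cspg4*), and the list summed to 61.8 against 2.21 CPM. Of 11 retinal neuron and photoreceptor markers, 6 were past 2-fold lower in Cd11c-active and 2 past 2-fold higher, with 145 against 271 CPM. Of 4 Muller glia and astrocyte markers, *Glul* had 27773 and 33293 reads, *Slc1a3* 73 and 642, *Rlbp1* 94 and 0, and *Sox9* 43 and 18. Of 4 monocyte and neutrophil markers, 1 was past 2-fold higher (*Ccr2*, 35 and 0 reads) and 3 lower (*Plac8*, *S100a8* and *S100a9*, with 0 reads in Cd11c-active), with 2.83 against 17.0 CPM. Of the dendritic and erythroid lists 1 marker each was measured, *Zbtb46* (200 and 0 reads) and *Hbb-bt* (0 and 31). The part of these cells in the subunit ratios was not tested.

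The libraries differed from each other by more than counting error in every read range measured, which began at 200 reads. The variance of the log2 ratio was 69.7 times the counting variance for genes whose reads summed to at least 200 and under 400, 80.3 times from 800 to under 1600 reads, and 110 times from 3200 reads up. The main ratios are therefore given with an exact Clopper-Pearson 95% interval on reads, called the counting interval, or with a widened interval from the reads divided by the factor of the gene's read range. A gene is called past 2-fold where its log2 ratio is at least 1 or at most -1. By this rule 23.3% of the 13037 genes with at least 20 reads were higher in Cd11c-active and 21.6% were lower. The share depends on depth: 27.1% were higher and 29.5% lower from 200 to under 400 reads, 12.6% and 9.12% from 800 to under 1600 reads, and 3.23% and 2.47% from 1600 reads up.

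Of the 77 subunits, 21 (27.3%) were past 2-fold higher in Cd11c-active, 6 (7.79%) were past 2-fold lower and 50 lay within 2-fold. With a trend on transcript length and GC content removed, described below, the counts were 14 higher and 9 lower, and 11 subunits changed sign. The shares of all genes after that step are not given here. The higher share without that step was near the 23.3% of all genes, and the lower share was under the 21.6%. The median log2 ratio was 0.32, against 0.01 over all 13037 genes, and 50 subunits were above 0 and 27 below. All 6 lower genes were in complex I. Complexes III, IV and V, a grouping made after the values were seen, had 14 of 37 (37.8%) higher and 0 lower. The difference between complexes was not tested. The widened interval was above 0 for 2 subunits, *Cox6a1* and *Cox6b1*, and below 0 for 0, against 1.84% and 0.614% of all genes. With the length and GC trend removed the lower end was -0.30 for *Cox6a1* and 0.0069 for *Cox6b1*.

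**Figure D1:**
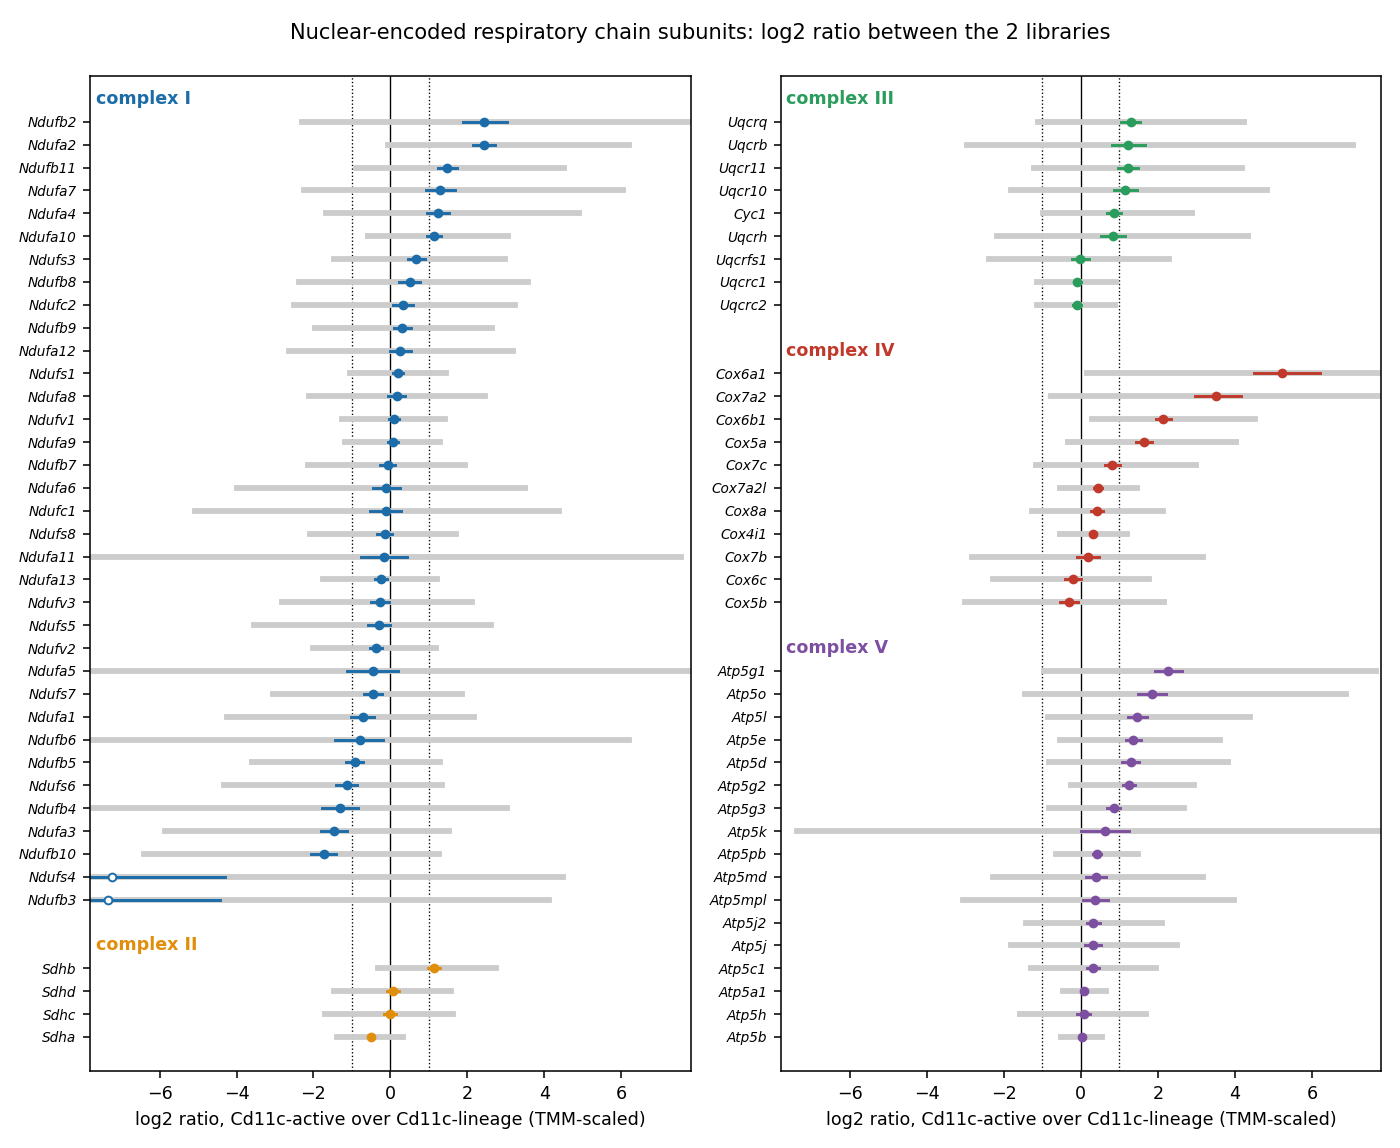
Log2 ratio of the subunits (x axis, Cd11c-active over Cd11c-lineage, 1 library each) by complex, with 1 complex I member not drawn. Points are ratios, coloured bars are 95% counting intervals, grey bars are widened intervals cut at the plot edge, open points have 0 reads in Cd11c-active, and dotted lines mark 2-fold. All 17 points of complex V lie above 0, while the points of complex I lie on both sides of it.

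Depth separated the subunits, as it did all genes. The 12 subunits with at least 1600 reads over both libraries lay within 2-fold, from -0.51 to 0.45, and summed to 2290 CPM in Cd11c-active against 2192 CPM. Only 3.23% of all genes in that range were higher and 2.47% lower. Of the 26 with 400 to under 800 reads, 10 were higher and 2 lower, against 22.5% and 16.7% of all genes in that range. Of the 20 with 800 to under 1600 reads, 6 were higher and 0 lower, against 12.6% and 9.12%. Of the 12 with 200 to under 400 reads, 4 were higher and 2 lower, against 27.1% and 29.5%. Of 7 with under 200 reads, 1 was higher and 2 lower, in a range where 43.3% of all genes were higher, 42.3% were lower and 63.0% were missing from 1 of the libraries.

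Summed by complex, the levels in Cd11c-active and then Cd11c-lineage were 1013 and 943 CPM for complex I, 370 and 402 CPM for complex II, and 449.6 and 381 CPM for complex III. Complex IV stood at 720 and 458 CPM, and complex V at 1684 and 1380 CPM. These sums run over different numbers of genes and are not scaled to length, so they compare the libraries and not the complexes. The log2 ratio of the sums was 0.10 for complex I (counting interval 0.07 to 0.14, widened -0.22 to 0.43), and it turned to -0.033 under library totals and to -0.10 with the length and GC trend described below removed. For complex II it was -0.12 (widened -0.71 to 0.46), for complex III 0.24 (-0.30 to 0.78, and -0.10 from its members with at least 1000 reads) and for complex V 0.29 (-0.002 to 0.58). For complex IV it was 0.65 (counting 0.61 to 0.70, widened 0.20 to 1.11), so complex IV was the complex whose widened interval did not include 0. With the length and GC trend removed it was 0.36, and the widened interval, -0.098 to 0.82, included 0. Widened intervals of sums treat the genes as varying independently.

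**Figure D2:**
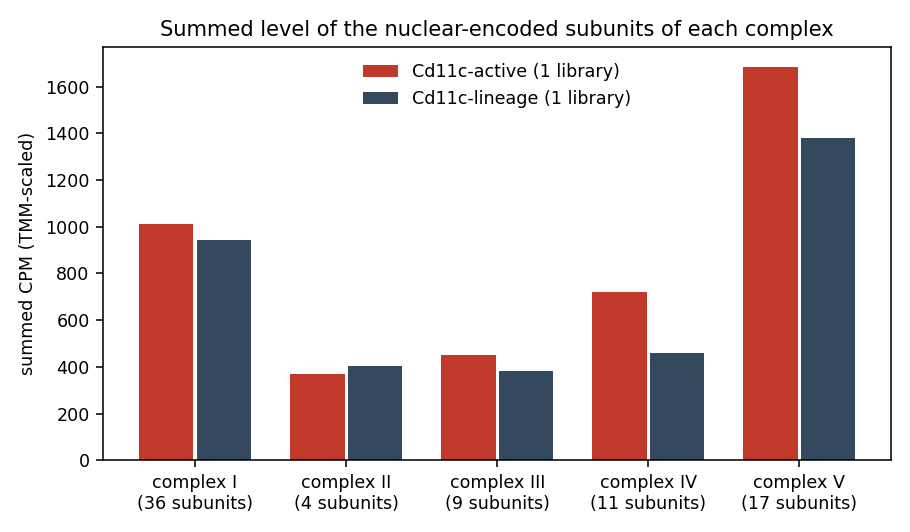
Summed TMM-scaled CPM (y axis) of the nuclear-encoded subunits of each complex (x axis), 1 bar per library, with no error bars because each group is 1 library. Complex IV shows the widest gap in relative terms, 720 against 458 CPM.

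In complex I, 6 subunits were higher and 6 lower in Cd11c-active, 16.7% each way, against 23.3% and 21.6% of all genes. The median was -0.11, with 16 ratios above 0 and 20 below. With the length and GC trend removed, 5 were higher and 9 lower, and the median was -0.37. The 7 nuclear-encoded core subunits, which carry the flavin, the iron-sulphur clusters and the quinone site, all lay within 2-fold. *Ndufs1* had 1049 reads in Cd11c-active against 1044 in Cd11c-lineage, and *Ndufv1*, which binds NADH and the flavin, had 909 and 973. *Ndufs3*, *Ndufs7*, *Ndufs8* and *Ndufv2* ranged from -0.46 to 0.67.

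The accessory subunits of complex I, which surround the core, spread further. *Ndufa2* had 606 reads in Cd11c-active against 128 in Cd11c-lineage, a log2 ratio of 2.43 (counting 2.15 to 2.72, widened -0.07 to 6.20). *Ndufb2*, a small membrane-arm subunit, had 158 and 33 reads and the same ratio (widened -2.30 to 13.4). The other 4 past 2-fold higher were *Ndufb11* (457 and 186 reads), *Ndufa7* (193 and 90), *Ndufa4* (300 and 145) and *Ndufa10* (758 and 395), with ratios from 1.13 to 1.48. *Ndufa7* was within 2-fold with the length and GC trend removed (0.88), and *Ndufa10* under library totals (0.99). *Ndufa4* was named as a complex I subunit and is now placed with complex IV. Counting it there gives 5 higher subunits in complex I.

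The 6 lower subunits were all accessory. *Ndufb3* had 0 reads in Cd11c-active against 92 in Cd11c-lineage, and *Ndufs4*, whose loss in mice is used as a model of Leigh syndrome, had 0 and 85. With 3 reads set as a floor in Cd11c-active, the observed 92 and 85 reads put these at least 26.9-fold and 24.9-fold lower. The counting intervals, which also hold the error of those 92 and 85 reads, end at log2 ratios of -4.42 and -4.31, and both widened intervals included 0. *Ndufb10* had 99 and 375 reads (log2 ratio -1.73, widened -6.40 to 1.26), and *Ndufa3* had 96 and 302 (-1.46). *Ndufb4* had 54 and 152 reads and *Ndufs6*, a zinc-binding subunit, 171 and 429, with ratios of -1.30 and -1.14. By name series, Ndufa genes summed to 370 and 296 CPM, and Ndufb genes to 164 and 171 CPM. The accessory *Ndufs4*, *Ndufs5*, *Ndufs6* and *Ndufv3* were all below 0 and summed to 50.2 and 80.6 CPM, a log2 ratio of -0.68 (widened -2.14 to 0.66).

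The 17 other accessory subunits of complex I lay within 2-fold, from -0.93 in *Ndufb5* (226 and 491 reads) to 0.50 in *Ndufb8* (253 and 204). *Ndufa9*, which had the most reads of them, had 1042 and 1131 reads, giving 0.07 (widened -1.17 to 1.29). Reads of copies are uncertain here: the processed pseudogene *Ndufa11b* had 80 and 122 reads, above the 44 and 56 of *Ndufa11* itself. *Ndufab1*, the acyl carrier protein of complex I, is outside the symbol rule and had 70 and 165 reads.

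Complex II, succinate dehydrogenase, oxidises succinate and feeds its electrons to ubiquinone. *Sdha*, the flavoprotein, had 2283 reads in Cd11c-active against 3710 in Cd11c-lineage, a log2 ratio of -0.51 (counting -0.59 to -0.44, widened -1.38 to 0.32). *Sdhb*, the iron-sulphur subunit, had 1029 and 532 reads and was past 2-fold higher at 1.14 (widened -0.32 to 2.75), or within 2-fold at 0.87 with the length and GC trend removed. The catalytic pair thus differed in opposite directions on reads, while the membrane anchors *Sdhc* (568 and 653 reads) and *Sdhd* (688 and 749) were at -0.01 and 0.06. *Sdha* held 58.7% of the reads of the complex, and without it the sum gave 0.43 in place of -0.12.

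Complex III is the cytochrome bc1 complex. The large core proteins *Uqcrc1* (1777 reads in Cd11c-active against 2165 in Cd11c-lineage) and *Uqcrc2* (1381 and 1699) had ratios of -0.10 and -0.11. *Uqcrfs1*, the Rieske iron-sulphur protein, was level at 312 and 359 reads (-0.02). 4 small subunits were past 2-fold higher: *Uqcrq* had 423 and 196 reads, *Uqcrb* 144 and 70, *Uqcr11* 403 and 197 and *Uqcr10* 282 and 145. Their log2 ratios were 1.14 to 1.29, the widened interval of each included 0, and *Uqcr10* (0.70) and *Uqcr11* (0.71) were within 2-fold with the length and GC trend removed. *Cyc1*, the cytochrome c1 subunit, had 605 and 379 reads (0.86) and the hinge protein *Uqcrh* 224 and 143 (0.83). Without both core proteins the 7 others summed to 194 and 106 CPM, a log2 ratio of 0.87 (widened 0.003 to 1.77, or -0.25 to 1.52 with the length and GC trend removed). The core proteins had the lowest ratios of the complex, so leaving them out raises the sum by construction.

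Complex IV, cytochrome c oxidase, passes electrons to oxygen around a core that mitochondrial DNA encodes. *Cox6a1*, the widely expressed isoform of a regulatory subunit, had 445 reads in Cd11c-active against 13 in Cd11c-lineage, a log2 ratio of 5.23 (counting 4.49 to 6.20, widened lower end 0.16). *Cox7a2*, the widely expressed form of subunit 7a, had 275 and 27 reads (3.51, counting 2.96 to 4.16, widened lower end -0.78). *Cox6b1*, which faces the intermembrane space, had 987 and 255 reads, a ratio of 2.14 (counting 1.94 to 2.34, widened 0.29 to 4.52). *Cox5a* had 712 and 262 reads (1.63, widened -0.33 to 4.04). Per kilobase of transcript, *Cox6a1* and *Cox7a2* stood at 1.62 and 2.92 CPM in Cd11c-lineage, under the subunit median of 28.1, while *Cox6b1* and *Cox5a* stood near that median, at 29.4 and 28.9.

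The other 7 subunits of complex IV were within 2-fold. *Cox4i1*, the widely expressed isoform of subunit 4, had 2773 and 2529 reads, giving 0.32 (widened -0.55 to 1.20), and *Cox7a2l*, an assembly factor of supercomplexes, had 1711 and 1426 (0.45). *Cox7c* (527 and 341 reads), *Cox8a* (637 and 543) and *Cox7b* (198 and 199) ranged from 0.18 to 0.81. *Cox6c* (379 and 497) and *Cox5b* (243 and 342) were below 0, at -0.20 and -0.31. *Cox5a* and *Cox5b*, which differ in direction here, are both matrix-side subunits present in the assembled enzyme. *Cox4i1* held 34.6% of the reads, and the sum without it gave 0.83 in place of 0.65. Muscle, lung or testis isoforms of Cox4, Cox6, Cox7 and Cox8 subunits, and *Ndufa4l2*, would fall under the symbol rule, but none was among the members it gave.

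In complex V, ATP synthase, 17 of 17 subunits had ratios above 0, against 50.2% of all genes, and 6 (35.3%) were past 2-fold higher, against 23.3% of all genes. With the length and GC trend removed *Atp5d* (0.98), *Atp5e* (0.93) and *Atp5g2* (0.87) were within 2-fold. *Atp5b*, the catalytic beta subunit and the member with the most reads, had 6408 reads in Cd11c-active against 7151 in Cd11c-lineage, a log2 ratio of 0.03 (counting -0.02 to 0.08, widened -0.51 to 0.56). *Atp5a1*, the alpha subunit, had 6083 and 6516 reads (0.09, widened -0.47 to 0.64). *Atp5b*, *Atp5a1* and *Atp5h* turned negative under library totals (-0.11, -0.05 and -0.06), and *Atp5h*, *Atp5b* and *Atp5j* did so with the length and GC trend removed (-0.18, -0.08 and -0.02), which leaves 14 of 17 above 0 each time. Of the central stalk, the delta and epsilon subunits *Atp5d* (536 and 248 reads) and *Atp5e* (678 and 300) were past 2-fold higher, at 1.30 and 1.36, and the gamma subunit *Atp5c1* (668 and 610) was at 0.32.

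The 3 genes *Atp5g1*, *Atp5g2* and *Atp5g3* encode the same mature c subunit of the rotating ring with different import signals. They had 346 and 82, 1016 and 486, and 711 and 448 reads, with ratios of 2.26, 1.25 and 0.85. Summed, the c subunit stood at 168 CPM in Cd11c-active against 72.3, a log2 ratio of 1.22 (counting 1.11 to 1.33, widened 0.19 to 2.31, or -0.061 to 2.06 with the length and GC trend removed). *Atp5o*, the stalk subunit OSCP, had 255 and 81 reads (1.84, widened -1.45 to 6.88). The other stalk genes *Atp5pb*, *Atp5h* and *Atp5j* were at 0.07 to 0.41. Among small membrane subunits, *Atp5l* had 477 and 196 reads (1.47), and *Atp5j2*, *Atp5k*, *Atp5md* and *Atp5mpl* were at 0.33 to 0.61. *Atpif1*, the inhibitor of the enzyme, falls outside the symbol rule and had 823 and 411 reads, a ratio of 1.19 (widened -0.47 to 3.06).

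Levels per kilobase of the principal transcript compare genes but depend on the transcript chosen, the longest where ranks tied. *Atp5g1* was taken at 4715 nt with 408 coding, and *Ndufb2* at 4371 nt with 315 coding. On this scale *Cox4i1* led with 294 CPM per kb in Cd11c-active and *Atp5b* with 266 in Cd11c-lineage. *Cox4i1*, *Atp5b* and *Atp5a1* held the first 3 places in both libraries. Median levels in Cd11c-active were 26.3 CPM per kb for complex I, 33.2 for complex III, 48.9 for complex V, 54.5 for complex II and 79.0 for complex IV. In Cd11c-lineage the medians were 22.6 for complex I, 18.7 for complex III, 29.4 for complex IV, 37.2 for complex V and 38.2 for complex II. Complex IV was therefore first by median in Cd11c-active and behind complexes II and V in Cd11c-lineage.

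Transcript length moved with the ratio across all genes, and the subunits are short. The median principal transcript was 865 nt for the 77 members and 2985 nt for all tested genes. Among protein-coding genes with 200 to under 3200 reads, the median log2 ratio was 0.80 for the 65 with transcripts under 600 nt, 0.33 from 600 to under 1000 nt, 0.19 from 1000 to under 2000 nt and -0.04 from 2000 nt up. The shares past 2-fold higher in these classes were 44.6%, 28.6%, 21.6% and 15.1%. The members of the shortest class had 8 of 15 higher, and those from 600 to under 1000 nt had 7 of 23. From 1000 to under 2000 nt 3 of 22 members were higher, and from 2000 nt up 2 of 5. Of the 50 coding genes under 600 nt that are no members, 42.0% were past 2-fold higher. Lower in Cd11c-active were 9.23%, 13.7%, 11.9% and 15% of all genes in the 4 classes, and 2, 2, 0 and 0 of the members.

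Within these classes the counts by complex were as follows. Under 600 nt, complexes III to V had 6 of 9 higher and 0 lower, and complex I, which has all 6 members of complexes I and II there, had 2 higher and 2 lower. From 600 to under 1000 nt, complexes III to V had 5 of 12 higher and 0 lower, and complex I had 2 of 11 higher and 2 lower. With a linear trend on length and GC content taken out, the median of all 77 was 0.047, and 9 subunits of complexes III to V were past 2-fold higher in place of 14. *Cox6a1*, *Cox7a2*, *Cox6b1* and *Cox5a* then stood at 4.77, 3.22, 1.85 and 1.39. The trend was fitted to genes of 1000 or more reads, at -0.12 per doubling of length. Whether it takes out the whole length effect in genes with fewer reads was not tested. The part of transcript length in these ratios was otherwise not tested.

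**Figure D3:**
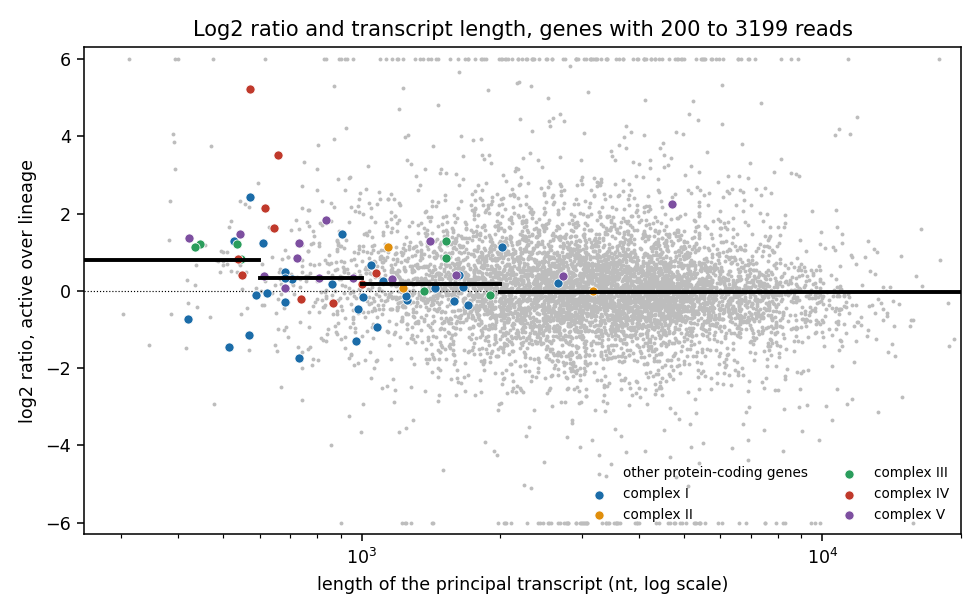
Log2 ratio (y axis, Cd11c-active over Cd11c-lineage) against the length of the principal transcript (x axis, log scale) for protein-coding genes with 200 to under 3200 reads over both libraries. Grey points are genes outside the chain, drawn at the plot edge beyond 6, coloured points are subunits by complex, and black lines are medians of all genes in 4 length classes, from 0.80 for the shortest to -0.04 for the longest.

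Promoters of the members were searched for motifs of the factors known for this gene set, in windows from 250 bases before to 50 bases after the gene start (RefSeq, GRCm38.p6), of which 64 of 77 members matched by symbol. The NRF1 motif, GCGCA and GCGC with any 1 base between them, was in 17 of 64 members (26.6%) on either strand, both strands being read for every motif, against 5.19% of 27025 genes with a window. The ETS motif CCGGAAG was in 17 (26.6%), against 9.93%, and the YY1 motif AAGATGGCG in 7 (10.9%), against 1.64%. At least 1 of these 3 was in 35 members (54.7%), against 15.1% of all genes. By direction, 8 of 18 higher members, 24 of 40 within 2-fold and 3 of 6 lower members held 1 of them, so the motifs were not limited to members that differed between the libraries. TATAAA was in 6 members (9.38%, against 15.7%), TGACGTCA in 4 (6.25%, against 2.03%) and TGACCTTTG in 0 (against 0.544%). A match describes these letters and shows no binding.

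The 150 bases before the gene start are shown for the subunits past 2-fold that illustrate the motifs: *Cox6a1* with an NRF1 and an ETS match, *Cox6b1* with an ETS match, *Atp5g2* with a palindromic NRF1 match, and *Ndufs6*, lower in Cd11c-active, with an NRF1 match. All are read 5′ to 3′ on the minus strand of GRCm38.p6, with matches in capitals.
Cox6a1, chr5:115348959-115349108: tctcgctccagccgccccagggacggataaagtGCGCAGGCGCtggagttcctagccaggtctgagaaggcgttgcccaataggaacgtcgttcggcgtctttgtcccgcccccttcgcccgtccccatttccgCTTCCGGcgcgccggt
Cox6b1, chr7:30626115-30626264: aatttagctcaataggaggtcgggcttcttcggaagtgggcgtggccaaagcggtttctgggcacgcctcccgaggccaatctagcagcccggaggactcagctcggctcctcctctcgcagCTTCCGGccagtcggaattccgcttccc
Atp5g2, chr15:102671048-102671197: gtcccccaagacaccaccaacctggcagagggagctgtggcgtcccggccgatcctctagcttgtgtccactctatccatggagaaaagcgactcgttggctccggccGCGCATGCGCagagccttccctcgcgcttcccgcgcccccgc
Ndufs6, chr13:73328483-73328632: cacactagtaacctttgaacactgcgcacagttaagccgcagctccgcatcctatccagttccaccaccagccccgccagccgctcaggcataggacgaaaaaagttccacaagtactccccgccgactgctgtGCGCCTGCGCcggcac
The same NRF1 motif thus stands upstream of *Cox6a1*, past 2-fold higher, and of *Ndufs6*, past 2-fold lower.

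The factors themselves were within 2-fold. *Nrf1* had 595 reads in Cd11c-active against 693 in Cd11c-lineage (log2 ratio -0.03), *Gabpa* 926 and 955 (0.14), and *Yy1*, with the most reads of the 12 measured regulators of mitochondrial biogenesis, 1766 and 1074 (0.90, widened -0.16 to 2.03). The coactivator *Ppargc1b* was past 2-fold lower, with 56 and 207 reads (-1.69, widened -8.51 to 2.15). *Ssbp1*, the mitochondrial single-strand DNA binding protein, had 124 and 0 reads, and the remaining regulators were within 2-fold, with a list median of 0.03.

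Enzymes of the tricarboxylic acid cycle, which supply NADH and succinate, summed to 1264 CPM in Cd11c-active against 1266. Of 13, 1 was past 2-fold higher and 2 lower, against 23.3% and 21.6% of all genes, with a median of 0.09. *Ogdh*, with the most reads, had 3722 and 3967 reads (0.09). The beta subunits of succinyl-CoA ligase went opposite ways: the GTP-forming *Suclg2* had 1262 and 521 reads (1.46, widened 0.03 to 3.09) and the ATP-forming *Sucla2* 449 and 1355 (-1.41, widened -3.14 to 0.07). *Fh1*, fumarase, had 272 and 640 reads (-1.05).

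Assembly factors, which build the complexes and do not stay in them, spread widely at low reads. All genes did so too: 43.3% were past 2-fold higher and 42.3% lower under 200 reads, and 27.1% and 29.5% from 200 to under 400 reads. Of 16 for complex I, 7 were past 2-fold higher and 3 lower (median 0.70). Among those with at least 200 reads, *Foxred1* (403 and 130 reads), *Dmac1* (273 and 70) and *Ndufaf3* (197 and 25) were higher, and *Ndufaf1* (96 and 252) and *Tmem186* (0 and 283) were lower. With 3 reads as the floor *Tmem186* was at least 82.9-fold lower on counting error alone. Its widened interval, with an upper end of 0.75, included 0. *Acad9*, with the most reads of that list, had 308 and 462 (-0.40). Of 3 for complex II, 2 were higher, led by *Sdhaf2* (350 and 98 reads), and 1 lower. Of 5 for complex III, 2 were lower, among them *Bcs1l* (62 and 189), which inserts the Rieske protein. *Uqcc1*, which had the most reads for complex III, had 268 and 256.

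For complex IV, 7 of 23 assembly factors were past 2-fold higher and 8 lower. The shares of all genes from 200 to under 400 reads were 27.1% and 29.5%. The list median was -0.46. *Coa5* had the most reads, 2344 and 2380 (0.16). *Cox19* (374 and 130 reads) and *Coa3* (212 and 102) were higher, while *Surf1* (41 and 346), *Coa8* (77 and 349), *Coa7* (71 and 285) and *Cox10* (167 and 436), which makes heme for the enzyme, were lower. *Cox17*, a copper chaperone, had 148 and 0 reads. Of 5 factors for complex V, *Tmem242* (901 and 227 reads, 2.17, widened 0.22 to 4.74) and *Atpaf1* (243 and 115) were higher and *Atpaf2* (62 and 251) was lower. Among 13 genes of mobile carriers and coenzyme Q synthesis, 4 were higher, *Coq5*, *Coq8b* and *Coq9* at 1.03 to 1.21 and *Pdss2*, and 2 lower, *Coq10a* and *Ndufab1*. Over all genes with at least 20 reads, 23.3% were higher and 21.6% lower. Cytochrome c, *Cycs*, had 288 and 228 reads (0.52).

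**Figure D4:**
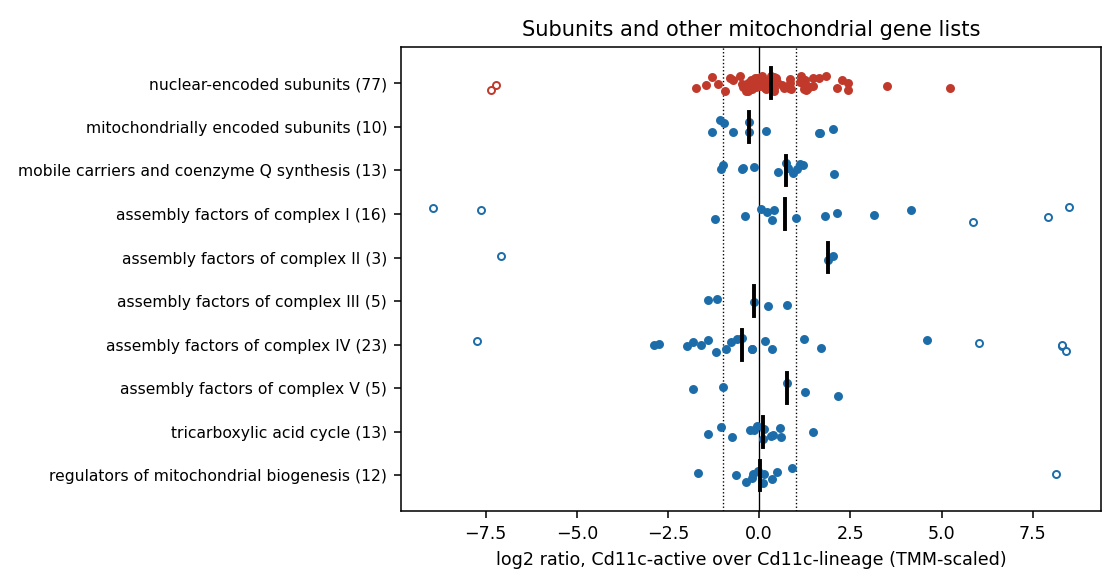
Log2 ratio (x axis) of the 77 subunits and of the members with at least 20 reads in 9 other mitochondrial lists (y axis, number of genes in brackets). Black ticks are medians, open points have 0 reads in either one or the other library, and dotted lines mark 2-fold. The subunit median of 0.32 sits between those of the tricarboxylic acid cycle (0.09) and of the assembly factors of complex I (0.70).

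The subunits encoded by mitochondrial DNA, measured through 10 transcripts with at least 20 reads, summed to 3815 CPM in Cd11c-active against 5262 CPM, a log2 ratio of -0.46 (widened -0.64 to -0.29), opposite in sign to the 0.25 (widened 0.08 to 0.42) of the 77 nuclear-encoded subunits, which was 0.085 (-0.087 to 0.26) with the length and GC trend removed. *mt-Nd1* (complex I) was level at 4062 and 4068 reads (0.18). For complex IV, *mt-Co1* had 28879 and 39807 reads (-0.28), and for complex I *mt-Nd5* had 4645 and 11185 (-1.08) and *mt-Nd4* 1052 and 2918 (-1.28). *mt-Co1* held most of the reads in the mitochondrial sum, and the length and GC trend was not removed from that sum. The difference between the nuclear and the mitochondrial sums was not tested. By count, 3 of the 10 were past 2-fold higher, *mt-Atp6*, *mt-Co2* and *mt-Co3*, each with 65 or fewer reads over both libraries, and the 2 past 2-fold lower were *mt-Nd4* and *mt-Nd5*. Over all genes with at least 20 reads, 23.3% were higher and 21.6% lower.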

How the data were processed

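The authors deposited 1 gene table that holds unnormalised read counts of each library and, from their own comparison, log2 values of fold change and mean CPM, per the file headers. Per the submitters' processing notes, cutadapt 3.5, STAR 2.7.9a, featureCounts 1.6.3, edgeR 4.0.16 and the build GRCm39 were used. The annotation, the use of strand and the handling of duplicates and of reads shared with pseudogenes are not given in the sources used here, so genes with close copies are uncertain. No listed gene had fewer than 6 reads in all.

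Library sizes were scaled with TMM (edgeR 4.0.16, R 4.3.3; factors 0.954 and 1.05), and 0.5 reads were added before the log2 ratio. Genes under 20 reads in all were left out. Neither the quasi-likelihood test of edgeR nor DESeq2 could be fitted to 1 library per group. Spread in each read range was the variance of log2 ratios, from the median absolute deviation, divided by that expected from counting, and the range from 200 to under 400 reads stood in for lower ones. The floor for 0 reads was 3 reads, which is 0.243 CPM (Cd11c-active) or 0.214 CPM (Cd11c-lineage). Reads carry no molecular identifiers, so counting intervals and this floor cover counting error only. Length and GC content came from the APPRIS principal transcript in GENCODE M21 (GRCm38) by gene identifier, for 13499 genes (99.6%) and all 77 members. The linear trend, from the 4612 genes of 1000 or more reads, was -0.12 per doubling of length. Procedures were tested on simulated data. Python 3.11.15, numpy 2.4.6, scipy 1.17.1 and pandas 2.3.3 were used.

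Named genes were, per complex, the members with the most reads, the highest and lowest ratios, and all past 2-fold. In other lists they were the top gene and those past 2-fold with at least 200 reads. Further genes were named for their role after their values were seen. The members and lists were chosen with earlier results of these data known. The single values of 1 member named by this rule are not reported here.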

Additional observations from a re-analysis of the deposited data

How the results depend on the processing

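DESeq2 size factors, TMM without ribosomal and mitochondrial RNA, 2 added reads and no minimum left every count as it was and no sign of the 77 members changed. Under library totals the summed log2 ratios were -0.033 for complex I, -0.25 for complex II, 0.10 for complex III, 0.52 for complex IV and 0.15 for complex V, and 6 members changed sign. With at least 200 reads 20 were higher and 4 lower, and with at least 1000 reads 4 were higher and 0 lower, with 1 and 0 in complex I and 2 higher in complexes III to V. The sums were then 0.17 for complex I, -0.10 for complex III, 0.55 for complex IV and 0.18 for complex V. With the length and GC trend removed 14 members were higher and 9 lower, 5 and 9 in complex I, 11 changed sign, the median was 0.047, the sums were -0.10, 0.068, 0.36 and 0.16 for complexes I, III, IV and V, and 9 subunits of complexes III to V were higher. *Atp5d*, *Atp5e*, *Atp5g2*, *Ndufa7*, *Sdhb*, *Uqcr10* and *Uqcr11* were then within 2-fold, and *Ndufa1*, *Ndufb5* and *Ndufb6* past it. Under library totals *Ndufa10* was within 2-fold and *Ndufb5* past it. Without the member with the most reads the sums were 0.43 for complex II, 0.43 for complex III, 0.83 for complex IV and 0.42 for complex V. Leaving out tissue-restricted isoforms was not run, as none is a member. No paired analysis was possible because each group is 1 library.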
